A study of Mus musculus with 16 samples.

Results

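The genes described here encode the nuclear-encoded subunits of the 5 complexes of oxidative phosphorylation. They were chosen by name alone, without any measured value: every probe for a gene named Nduf followed by a, b, c, s or v and a number (complex I), Sdha to Sdhd (complex II), Uqcr (complex III), Cox4 to Cox8 (complex IV) or Atp5 (complex V). The rule found 108 probes for 80 genes, out of 41174 probes for 27671 genes on the array. Of these 80 genes, 77 passed the filter on dim probes and were tested, beside 18404 genes tested in all; Cox4i2, Cox8b and Cox8c did not pass. The 77 tested genes were well above background on all 16 arrays, so each change below has a measured level on both sides. A few genes share the names without being structural subunits of the complex. Cox4nb is now called Emc8 and belongs to a membrane complex of the endoplasmic reticulum, Atp5s is now Dmac2l, Cox7a2l is now regarded as a supercomplex factor, and Ndufa4 is now placed in complex IV. All of them stay in the counts under the name on the array.

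RNA came from CD8 T cells (CD8+Thy1.2+) of female C57BL/6N mice aged 7 weeks, sorted by flow cytometry into memory phenotype cells (CD44hi) and naive cells (CD44lo). Each sort was cultured for 4 h either with PMA (10 ng/mL) and ionomycin (500 ng/mL), called stimulated, or in medium without them, called resting. PMA switches on protein kinase C and ionomycin lets calcium into the cell, so the antigen receptor is bypassed, and CD44 is the sole label that separates memory from naive cells. The 4 groups were naive stimulated, naive resting, memory stimulated and memory resting cells, with 4 arrays each from 4 separate rounds of sorting and culture. No source used here says whether cells of several mice were pooled. The arrays of each group lay on a slide of their own, so slide and group cannot be told apart in any comparison below.

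Each array had between 59.3% and 66.5% of its spots well above background. Of the 10 T cell markers looked for, 9 were tested, and Cd8b1 averaged 7.14, 7.53, 7.10 and 7.33 in naive stimulated, naive resting, memory stimulated and memory resting cells, on the log2 scale relative to each array's 75th percentile that is used throughout. Cd44, the sorted marker, was 4.05 log2 higher in resting memory than in resting naive cells. The 9 tested markers of monocytes, macrophages or neutrophils summed to 1.73 to 3.26 times the array's 75th percentile in naive stimulated cells against 8.35 to 14.2 in naive resting cells, and to 2.95 to 4.57 in memory stimulated cells against 13.5 to 21.9 in memory resting cells. The 5 B cell markers tested of 6 summed to 11.7 to 15 against 24.6 to 35.4 in naive cells, and to 14.5 to 18.5 against 30.9 to 36.7 in memory cells, in the same order. The 5 natural killer cell markers, of which memory CD8 T cells also express Nkg7 and Eomes, summed to 45.4 to 70.0 in memory stimulated cells against 13.7 to 22 in naive stimulated cells, and to 18.8 to 21.1 in memory resting against 6.0 to 10.5 in naive resting cells. The 9 tested T cell markers summed to 253 to 344 in naive stimulated against 375 to 539 in naive resting cells, and to 306 to 369 in memory stimulated against 381 to 430 in memory resting cells. In naive stimulated, naive resting, memory stimulated and memory resting cells, the 6 tested of 7 dendritic cell markers summed to 4.53 to 9.82, 1.39 to 8.23, 4.96 to 7.22 and 4.93 to 9.4, and the 3 tested of 4 markers of CD4 or regulatory T cells to 0.172 to 0.302, 0.259 to 0.502, 0.832 to 1.04 and 0.692 to 1.04. The 2 tested of 5 erythrocyte or platelet markers summed to 0.305 or less on every array. Markers not tested included Trac, Ly6g, Pax5, Siglech, Foxp3, Hbb-bs and Ppbp. These sums move with the comparisons below, and their part in the results was not tested.

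Oxidative phosphorylation couples the oxidation of nutrients to the making of ATP in the inner mitochondrial membrane. Complex I takes electrons from NADH and complex II takes them from succinate; both pass them through coenzyme Q to complex III, cytochrome c and complex IV, which reduces oxygen. Complexes I, III and IV pump protons, and complex V, the ATP synthase, lets them flow back to make ATP. Resting T cells draw mostly on this pathway, while activated T cells raise glycolysis and also enlarge their mitochondria.

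These transcripts were among the brightest on the array. The members' mean level over all arrays had a median of 3.94, against -1.05 over all 18404 genes, and 47 of 77 lay in the brightest 10% of genes. The highest member was Atp5b, the catalytic beta subunit of the ATP synthase, and the lowest was Cox6a2, an isoform known from heart and skeletal muscle.

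After 4 h of stimulation the subunit genes did not move as a block. Uqcrq of complex III, Ndufa12 and Ndufa5 of complex I and Atp5g1 of complex V rose in both cell types, by 1.35 to 2.14 log2, while Ndufv1 and Ndufb10 of complex I, Sdha of complex II and Cox7a2l of complex IV fell in both, by 0.38 to 0.99 log2. In naive cells 37 of 77 members were called higher and 18 lower (limma, adjusted p under 0.05), beside 38.3% of all genes called higher and 31% called lower, 69.2% in either direction. In memory cells 44 members were called higher and 11 lower, against 31.4% and 39.1% of all genes, 70.5% in either direction. The median change of the members was 0.28 log2 in naive cells and 0.41 in memory cells, against 0.15 and -0.16 over all genes and 0.23 and 0.28 over the 7647 genes with a mean level of 0 or more, which are nearer to the members in brightness. Naive and memory responses share no array. Across the 77 members they correlated with Pearson's r = 0.872 and Spearman's rho = 0.878, as a description across genes, against r = 0.822 over all 18404 genes. Of the members, 35 were called higher in both responses, 11 lower in both and none in opposite directions, beside 26.2%, 26.2% and 4.7% of all genes.

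The balance of rises and falls depended on how arrays were put on one scale. Quantile scaling called 19 members higher and 31 lower in naive cells, beside 34.6% and 34.9% of all genes, and 18 and 26 in memory cells, beside 31.1% and 37.9%, with members' medians of -0.10 and -0.07. The authors' deposited table, tested in the same way, called 17 and 32 in naive cells, beside 33.3% and 35.4% of all genes, and 19 and 30 in memory cells, beside 30.2% and 38.3%. Calls were therefore also compared over 6 scalings: the main one, quantile scaling, the 75th percentile and the median of probes above background on all arrays, the normexp background correction as repaired after the data were seen, and the deposited table. The planned normexp correction was left out of the 6, since it lifted the medians of 3 arrays; it called 14 members higher and 10 lower in the naive response and 8 higher in the memory response, so fewer calls would hold with it. Under every one of the 6, 17 members were called higher and 16 lower in the naive response, beside 29.2% and 26.1% of all genes, and 17 higher and 10 lower in the memory response, beside 23.4% and 27.6%. Each array was then centred on the median level of its members. In the naive response 23 members were called higher and 30 lower, beside 28.4% and 38.3% of all genes. In the memory response 17 were called higher and 31 lower, beside 18.3% and 59.7%. The median level was 4.333, 4.264, 4.47 and 4.128 on memory stimulated arrays, against 3.62, 3.619, 3.624 and 3.925 on memory resting arrays. It rose by more there than the members' median change of 0.41, so the memory counts lean to lower calls. This centring removes a shift common to all probes of an array. It does not remove effects that change with intensity, and slide still cannot be told apart from group. In naive cells these counts were near the shares of all genes, so unequal change there was not particular to the set. In bulk RNA on a relative scale, less RNA of a gene per cell cannot be told apart from fewer cells that express it.

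**Figure D1:**
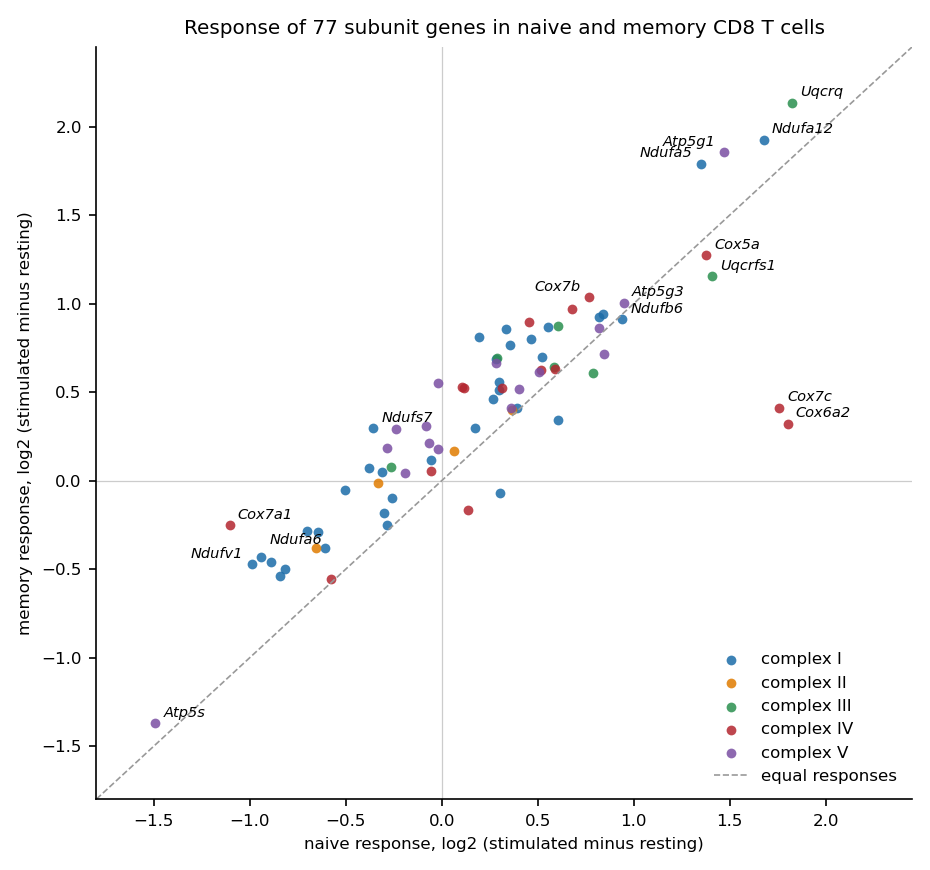
Response of the 77 tested subunit genes to stimulation in naive cells (x axis) and memory cells (y axis), as log2 stimulated minus resting, with 1 point per gene coloured by complex and a dashed line of equal responses. Uqcrq, Ndufa12, Atp5g1 and Ndufa5 lie far up in both responses, Atp5s far down in both, and Cox7c and Cox6a2 lie well below the line.

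**Figure D2:**
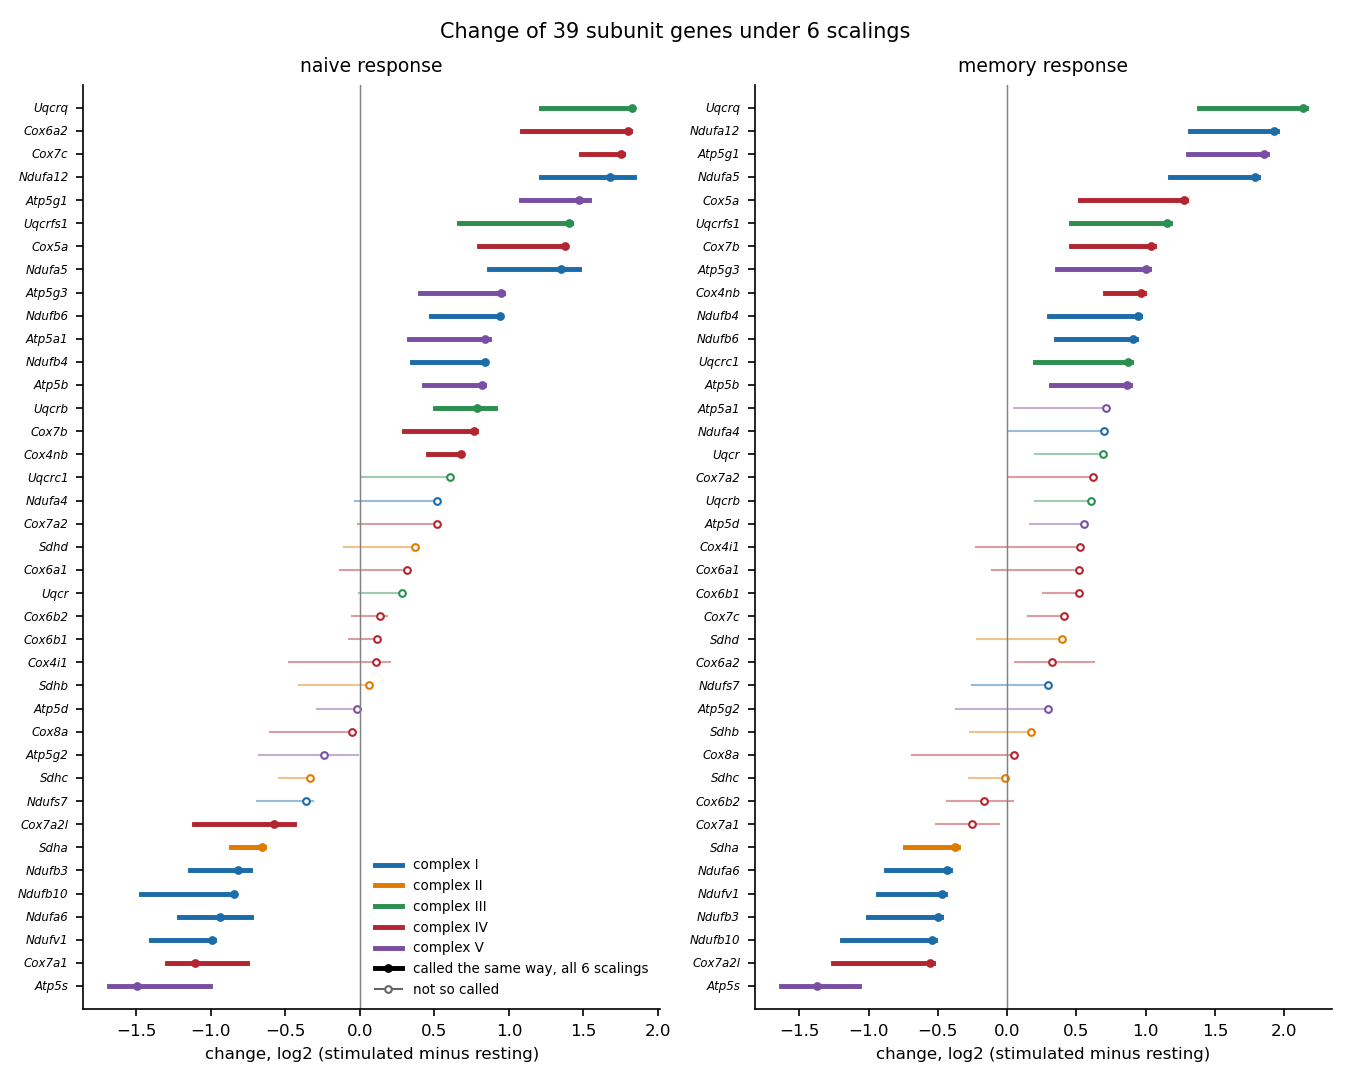
Change of 39 of the subunit genes, chosen for large changes or as isoforms or complex II genes, in the naive response (left) and the memory response (right), in log2 stimulated minus resting, ordered by the main value (point); bars run from the lowest to the highest value under 6 scalings, coloured by complex. Thick bars with filled points mark those called the same way under every scaling, 16 higher and 8 lower in naive cells, and 13 and 7 in memory cells.

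Promoter windows of RefSeq (GRCm38.p6), from 250 bases before to 50 after the start, were found for 65 of the 80 genes. Both strands were searched for the letters GCGCANGCG (the core bound by NRF1), CCGGAAG (the core of ETS factors such as Gabpa) and AAGATGGC (the core of YY1), which are factors known to bind promoters of these genes. GCGCANGCG stood in 29.2% of the members' windows, against 6.47% of 27025 windows in all, CCGGAAG in 23.1% against 9.12%, and AAGATGGC in 13.8% against 2.88%. The 27025 windows cover genes whether or not they were tested here, and genes of like brightness were not set apart. In naive cells, GCGCANGCG was in 9 of 29 windows of genes called higher, 4 of 15 of genes called lower and 6 of 20 of genes not called. CCGGAAG was in 6 of 29, 0 of 15 and 9 of 20, in the same order, and AAGATGGC in 4 of 29, 3 of 15 and 2 of 20; 1 gene with a window was not tested. These matches describe letters in a window and are no binding sites.

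The 120 bases before the start of 5 members show these windows beside the response. Capitals mark GCGCANGCG on either strand, overlaps joined. They are shown since Ndufb4 rose, Sdha fell and Atp5g2 was not called with such letters before the start, and Ndufa12 and Atp5g1, with the larger rises, have none there. The regions are chr16:37654369-37654488, reverse strand for Ndufb4, chr13:74350241-74350360, reverse strand for Sdha, chr15:102671048-102671167, reverse strand for Atp5g2, chr10:94198915-94199034, forward strand for Ndufa12 and chr11:96075632-96075751, reverse strand for Atp5g1, each printed 5′ to 3′ in the direction of transcription.
Ndufb4: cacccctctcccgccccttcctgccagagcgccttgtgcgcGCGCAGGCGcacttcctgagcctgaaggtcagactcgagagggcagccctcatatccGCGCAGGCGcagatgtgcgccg
Sdha: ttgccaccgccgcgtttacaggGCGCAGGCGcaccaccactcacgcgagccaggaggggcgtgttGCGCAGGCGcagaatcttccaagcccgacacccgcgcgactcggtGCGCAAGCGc
Atp5g2: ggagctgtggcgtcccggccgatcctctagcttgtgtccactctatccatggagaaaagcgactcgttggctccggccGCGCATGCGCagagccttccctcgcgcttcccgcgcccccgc
Ndufa12: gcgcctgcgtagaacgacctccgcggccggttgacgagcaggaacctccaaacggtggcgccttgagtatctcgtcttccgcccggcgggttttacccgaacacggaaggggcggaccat
Atp5g1: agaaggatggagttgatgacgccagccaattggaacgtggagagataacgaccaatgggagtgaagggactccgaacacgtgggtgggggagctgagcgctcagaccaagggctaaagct

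Complex I, the NADH dehydrogenase, was split between rises and falls, as was the whole set of genes tested. Of its 35 tested genes, 15 were called higher and 13 lower in naive cells, beside 38.3% and 31% of all genes. In memory cells 18 were called higher and 8 lower, beside 31.4% and 39.1%. Of the calls in complex I, 5 higher and 12 lower held under all 6 scalings in naive cells, beside 29.2% and 26.1% of all genes. In memory cells 7 and 7 held, beside 23.4% and 27.6%.

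Ndufa12, an accessory subunit of the peripheral arm, rose most in the complex. Its level was 5.02, 4.95, 4.91 and 5.12 in naive stimulated cells, against 3.25, 3.24, 3.17 and 3.62 in naive resting cells, and 5.12, 5.18, 5.43 and 5.12 in memory stimulated cells, against 3.0, 3.26, 3.22 and 3.66 in memory resting cells. The groups did not overlap in either cell type, with changes of 1.68 ± 0.14 (SE, adjusted p = 4.43e-08) in naive and 1.93 ± 0.14 (SE, adjusted p = 8.91e-09) in memory cells. Its 3 probes, at chr10:93758922-93758981, chr10:93758942-93759001 and chr10:93780198-93780257 (mm7, forward strand), gave 1.73, 1.65 and 1.68 in naive cells. Ndufa5, an accessory subunit of the matrix arm, had 4.83, 5.07, 4.97 and 5.0 in naive stimulated cells against 3.69, 3.56, 3.50 and 3.73 in naive resting cells, and 4.96, 5.23, 5.42 and 5.12 in memory stimulated cells against 3.21, 3.36, 3.38 and 3.62 in memory resting cells. It rose by 1.35 ± 0.12 (SE, adjusted p = 7.30e-08) and 1.79 ± 0.12 (SE, adjusted p = 2.91e-09). The accessory membrane-arm subunits Ndufb6 and Ndufb4 rose less, by 0.94 and 0.84 in naive cells and by 0.91 and 0.94 in memory cells, with adjusted p between 2.71e-06 and 9.64e-06.

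Ndufv1, which carries the flavin that takes electrons from NADH, moved the other way. Its level was 2.86, 2.30, 2.24 and 2.34 in naive stimulated cells, against 3.81, 3.24, 3.22 and 3.43 in naive resting cells, and 3.16, 2.81, 3.04 and 2.63 in memory stimulated cells, against 3.33, 3.31, 3.36 and 3.51 in memory resting cells. Stimulated arrays lay below all resting arrays of their cell type. The change was -0.99 ± 0.17 (SE, adjusted p = 7.49e-05) in naive cells and -0.47 ± 0.17 (SE, adjusted p = 0.0199) in memory cells; the memory call was lost when memory stimulated array 2 or 4 or memory resting array 4 was left out, with adjusted p of 0.0508 to 0.0684. The accessory subunits Ndufa6, Ndufb10 and Ndufb3 fell by 0.94, 0.84 and 0.81 in naive cells and by 0.43, 0.54 and 0.50 in memory cells on the log2 scale.

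Conserved core subunits, among them those that hold the redox centres of the enzyme, were themselves divided. In naive cells Ndufv2, Ndufs1, Ndufs3 and Ndufs8 were called higher, by 0.60, 0.27, 0.30 and 0.36, while Ndufv1 and Ndufs7 were called lower, with changes of -0.99 and -0.36. None of the 4 rises held under all 6 scalings, and the fall of Ndufv1 did. Ndufs7, which carries an iron-sulphur cluster beside the coenzyme Q site, lost its call in naive cells when any 1 of 11 arrays was left out, with adjusted p up to 0.119. In memory cells Ndufs8, another iron-sulphur subunit, rose by 0.77 and was called higher under all 6.

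Complex II, the succinate dehydrogenase, is also an enzyme of the citric acid cycle, and its 4 subunits did not move together. The catalytic flavoprotein Sdha had 1.95, 1.53, 1.67 and 1.73 in naive stimulated cells, against 2.26, 2.31, 2.32 and 2.60 in naive resting cells, and 2.00, 1.87, 1.76 and 1.94 in memory stimulated cells, against 2.28, 2.20, 2.24 and 2.37 in memory resting cells. It was lower on every stimulated array, with changes of -0.65 ± 0.11 (SE, adjusted p = 8.68e-05) and -0.38 ± 0.11 (SE, adjusted p = 0.00695), and these calls held under all 6 scalings; its promoter, printed above, holds GCGCANGCG at 3 places. A second Sdha probe, at chr13:71255611-71255670 (mm7, reverse strand), fell further, by 1.48 and 1.13 on the log2 scale, than the probe used here at chr13:71261221-71261280. Sdhb, the iron-sulphur subunit, had 3.29, 2.92, 2.93 and 3.15 in naive stimulated cells against 3.08, 2.91, 2.87 and 3.19 in naive resting cells, and 3.29, 3.14, 3.11 and 3.07 against 2.90, 2.93, 2.89 and 3.22 in memory stimulated and memory resting cells. The groups overlapped, and neither change passed the test, at 0.06 ± 0.12 (SE, adjusted p = 0.659) and 0.17 ± 0.12 (SE, adjusted p = 0.216). The heme-binding membrane anchors Sdhc and Sdhd moved differently. Sdhc had 1.74, 1.05, 1.09 and 1.32 in naive stimulated cells against 1.77, 1.54, 1.54 and 1.70 in naive resting cells, and 1.64, 1.35, 1.46 and 1.38 against 1.51, 1.29, 1.44 and 1.64 in memory stimulated and memory resting cells, a naive change of -0.33 ± 0.14 (SE, adjusted p = 0.0492) that was lost when any 1 of 13 arrays was left out and a memory change of -0.01 ± 0.14 (SE, adjusted p = 0.938). Sdhd had 3.94, 4.10, 4.12 and 4.11 in naive stimulated cells against 3.59, 3.73, 3.61 and 3.87 in naive resting cells, and 3.76, 4.02, 4.19 and 3.81 against 3.32, 3.62, 3.47 and 3.79 in memory stimulated and memory resting cells, changes of 0.37 ± 0.13 (SE, adjusted p = 0.0171) and 0.40 ± 0.13 (SE, adjusted p = 0.0109). The sign of the Sdhd changes turned under quantile scaling and with the authors' deposited table.

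Complex III, the cytochrome bc1 complex, held the largest rise of the set and, under the main scaling, no call in the other direction. Of its 7 tested genes, 5 were called higher in naive cells and 6 in memory cells, beside 38.3% and 31.4% of all genes. Of the calls in complex III, 3 in each cell type held under all 6 scalings, beside 29.2% and 23.4% of all genes. Uqcrq, a small accessory subunit, had 6.03, 6.13, 6.04 and 6.02 in naive stimulated cells, against 4.68, 4.07, 4.02 and 4.15 in naive resting cells, and 6.26, 6.43, 6.70 and 6.16 in memory stimulated cells, against 4.17, 4.19, 4.19 and 4.46 in memory resting cells. It rose by 1.82 ± 0.15 (SE, adjusted p = 3.22e-08) and 2.14 ± 0.15 (SE, adjusted p = 5.28e-09), with no overlap between groups; a second probe gave 2.27 and 2.09. Uqcrfs1, the Rieske iron-sulphur protein, had 5.98, 6.03, 5.97 and 6.16 against 4.61, 4.75, 4.57 and 4.59 in naive stimulated and naive resting cells, and 5.59, 5.77, 5.93 and 5.83 against 4.37, 4.63, 4.49 and 5.01 in memory stimulated and memory resting cells, and rose by 1.41 ± 0.13 (SE, adjusted p = 1.05e-07) and 1.16 ± 0.13 (SE, adjusted p = 9.60e-07). The core protein Uqcrc1 rose by 0.60 in naive cells, called under 4 of 6 scalings with values down to 0.011, and by 0.87 in memory cells, under all 6. Uqcrb, a small subunit at the coenzyme Q side, rose by 0.79, under all 6, and 0.61, under 5 of 6. Uqcrh, the hinge protein, had changes of -0.27 and 0.08 that did not pass the test. It was called lower under 4 of 6 scalings in naive cells, down to -0.83, and under 2 of 6 in memory cells, down to -0.59.

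Complex IV, the cytochrome c oxidase, had 9 of its 15 tested genes called higher and 2 lower in naive cells, beside 38.3% and 31% of all genes. In memory cells 9 were called higher and 1 lower, beside 31.4% and 39.1%. Of the calls in complex IV, 5 higher and 2 lower held under all 6 scalings in naive cells, beside 29.2% and 26.1% of all genes. In memory cells 4 and 1 held, beside 23.4% and 27.6%. Cox5a, a subunit on the matrix side, had 6.92, 7.07, 6.98 and 7.21 in naive stimulated cells, against 5.53, 5.69, 5.56 and 5.91 in naive resting cells, and 6.84, 6.98, 7.08 and 7.08 in memory stimulated cells, against 5.49, 5.71, 5.60 and 6.08 in memory resting cells. It rose by 1.37 ± 0.13 (SE, adjusted p = 2.07e-07) and 1.27 ± 0.13 (SE, adjusted p = 4.83e-07), with every stimulated array above every resting array. Cox7b rose by 0.77 and 1.04, and Cox4nb, no oxidase subunit, by 0.68 and 0.97; all 4 values held their call under the 6 scalings.

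Isoforms of one subunit were read side by side without setting the level of one probe against another. Cox4i1, the common isoform of subunit 4, changed by 0.11 ± 0.14 (SE, adjusted p = 0.525) in naive cells and 0.53 ± 0.14 (SE, adjusted p = 0.0039) in memory cells, and the sign of the memory change turned under quantile scaling; its paralog Cox4i2 was above background on 1 of 4 arrays in each group. Cox6a1, the widely expressed isoform, had a naive change of 0.31 ± 0.13 (SE, adjusted p = 0.0437), lost when any 1 of 11 arrays was left out. Cox6b1 and the testis isoform Cox6b2 had no call in either response, with naive changes of 0.12 and 0.14. Cox7a2 rose by 0.52 and 0.62, each called under 4 of 6 scalings, while Cox7a2l fell by 0.58 and 0.56 on the log2 scale (adjusted p = 0.00127 and 0.00162). Cox8a changed by -0.05 and 0.05, with neither called, and the muscle isoform Cox8b and the testis isoform Cox8c were above background on no array. Ndufa4, now an oxidase subunit, rose by 0.52 and 0.70, each called under 4 of 6 scalings, and the naive change had the other sign with the authors' deposited table.

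Complex V, the ATP synthase, had 7 of 16 tested genes called higher and 1 lower in naive cells, and 10 higher and 1 lower in memory cells. Of these, 4 higher and 1 lower held under all 6 scalings in naive cells, and 3 and 1 in memory cells, where 3 genes were called in both directions by different scalings. The shares of all genes are those given above for each response. The gene called lower by the main scaling was Atp5s in both. The catalytic core rose in its alpha and beta subunits. Atp5a1 (alpha) had 7.31, 7.34, 7.35 and 7.36 in naive stimulated cells against 6.47, 6.49, 6.42 and 6.59 in naive resting cells, and 7.19, 7.18, 7.31 and 7.28 against 6.47, 6.43, 6.48 and 6.72 in memory stimulated and memory resting cells, changes of 0.84 ± 0.09 (SE, adjusted p = 5.88e-07) and 0.71 ± 0.09 (SE, adjusted p = 3.61e-06). The memory call of Atp5a1 held under 4 of 6 scalings, with values down to 0.047 (adjusted p up to 0.578). Atp5b (beta) rose by 0.82 ± 0.12 (SE, adjusted p = 1.94e-05) and 0.86 ± 0.12 (SE, adjusted p = 1.12e-05). Atp5c1 (gamma) and Atp5d (delta), of the central stalk, had naive changes of -0.19 and -0.02, neither called by the main scaling. Atp5c1 was called lower under 4 of 6 scalings in naive cells, down to -0.91, and under 3 of 6 in memory cells, down to -0.63. Atp5d was called higher in memory cells, by 0.55 ± 0.17 (SE, adjusted p = 0.00769), under 3 of 6 scalings, with values down to 0.17.

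Atp5g1, Atp5g2 and Atp5g3 encode the same mature subunit c of the rotor ring, with different targeting peptides, and did not move alike. Atp5g1 had 4.48, 4.36, 4.30 and 4.53 in naive stimulated cells, against 3.06, 2.83, 2.74 and 3.16 in naive resting cells, and 4.56, 4.57, 4.76 and 4.52 in memory stimulated cells, against 2.57, 2.65, 2.53 and 3.23 in memory resting cells. It rose by 1.47 ± 0.15 (SE, adjusted p = 3.52e-07) and 1.86 ± 0.15 (SE, adjusted p = 2.44e-08). Atp5g3 had 7.53, 7.83, 7.74 and 7.89 against 6.75, 6.85, 6.69 and 6.90 in naive stimulated and naive resting cells, and rose by 0.95 ± 0.14 (SE, adjusted p = 1.56e-05), and by 1.01 ± 0.14 (SE, adjusted p = 8.29e-06) in memory cells. Atp5g2 had 4.21, 3.92, 3.74 and 4.16 against 4.84, 3.97, 3.90 and 4.28 in naive stimulated and naive resting cells, and 4.61, 4.48, 4.76 and 4.53 against 4.30, 4.15, 4.18 and 4.59 in memory stimulated and memory resting cells. Its groups overlapped, and its changes of -0.24 ± 0.19 (SE, adjusted p = 0.265) and 0.29 ± 0.19 (SE, adjusted p = 0.168) were not called. In naive cells 3 of the 6 scalings called Atp5g2 lower, down to -0.68. Atp5s had the largest fall of the set, -1.49 ± 0.16 (SE, adjusted p = 4.92e-07) and -1.37 ± 0.16 (SE, adjusted p = 1.27e-06), at -1.51, -2.09, -2.20 and -1.76 against -0.31, -0.43, -0.47 and -0.37 in naive stimulated and naive resting cells, and -1.43, -1.77, -1.56 and -1.91 against -0.58, -0.14, -0.31 and -0.16 in memory stimulated and memory resting cells.

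**Figure D3:**
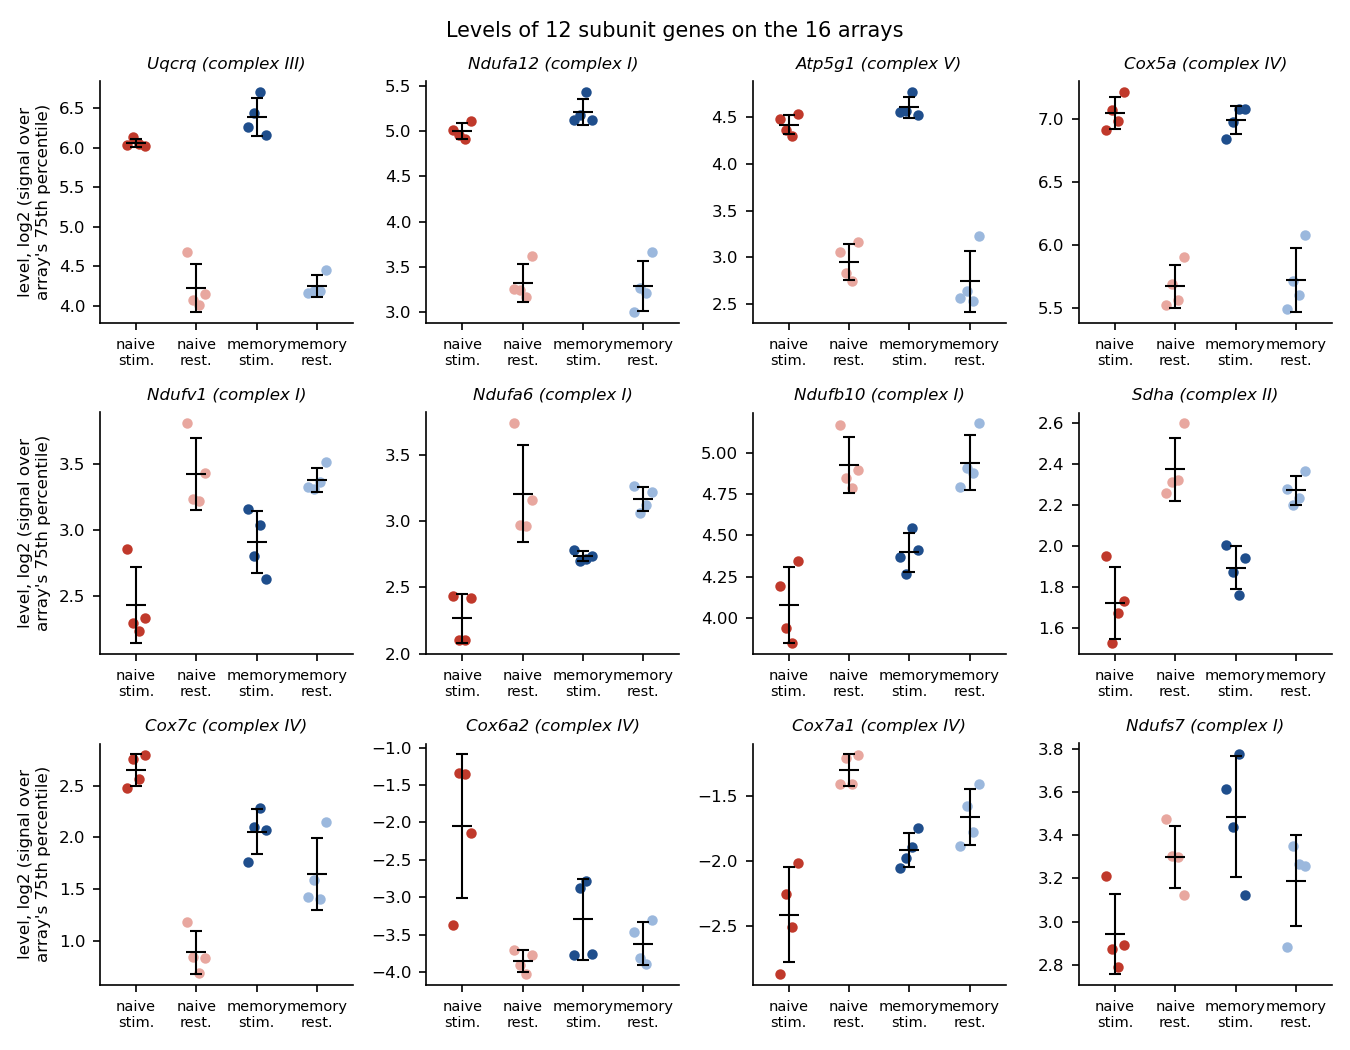
Level of 12 subunit genes on each of the 16 arrays, in log2 relative to the array's 75th percentile; points are arrays and bars the mean ± SD (n = 4), with naive stimulated, naive resting, memory stimulated and memory resting cells from left to right and an axis of its own for each gene. The top row shows genes that rose in both cell types, the middle row genes that fell in both, and the bottom row genes with different values in memory and naive cells.

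Memory and naive cells at rest had nearly the same levels of these transcripts. In the comparison of resting memory with resting naive cells, 1 of 77 members was called higher and 0 lower (limma; at an unadjusted p under 0.05, 1 higher and 1 lower), beside 13.9% and 7.66% of all genes, 21.5% in either direction. The median difference was -0.04 log2, against -0.01 over all genes. The authors' deposited table called 8 higher and 2 lower, beside 12.1% and 11.9% of all genes, and the other scalings called between 0 and 2 higher and 0 lower.

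Cox7c, a small subunit of the oxidase, was the gene called at rest. Its level was 1.43, 1.59, 1.41 and 2.15 in memory resting cells, against 1.19, 0.85, 0.69 and 0.84 in naive resting cells, with no overlap and a difference of 0.75 ± 0.17 (SE, adjusted p = 0.0053). After stimulation the order turned, with 1.77, 2.10, 2.29 and 2.07 in memory stimulated cells, against 2.48, 2.75, 2.56 and 2.80 in naive stimulated cells, again with no overlap and a difference of -0.59 ± 0.17 (SE, adjusted p = 0.02). It rose by 0.41 ± 0.17 (SE, adjusted p = 0.041) in memory cells and by 1.75 ± 0.17 (SE, adjusted p = 2.07e-07) in naive cells. The difference between the responses was -1.34 ± 0.24 (SE, adjusted p = 0.00114), which held under all 6 scalings. With the planned normexp correction it was -1.52 and no longer called, at adjusted p = 0.0959, and the resting difference was 0.67, at adjusted p = 0.379. The stimulated difference lost its call without memory stimulated array 1 or naive stimulated array 2 or 4, at adjusted p of 0.0577 to 0.0691, and the memory response without any 1 of 6 arrays, at adjusted p up to 0.119. Its only probe, of 60 bases, is placed over chr13:83112800-83113677 (mm7, reverse strand), a stretch longer than the probe. With the Ndufa8 probe it shared the lowest content of G and C among the probes used for the tested members, 28.3% against a median of 45%.

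After stimulation, 12 of 77 members were called higher in memory than in naive cells and 2 lower, beside 10.1% and 14.1% of all genes, 24.2% in either direction. The median difference was 0.20 log2, against -0.05 over all genes and 0.03 over the 7647 brighter genes. With each array centred on the members' median level, 0 were called higher and 17 lower, beside 4.93% and 35.8% of all genes. That level was 4.333, 4.264, 4.47 and 4.128 on memory stimulated arrays, against 4.027, 3.957, 3.861 and 4.108 on naive stimulated arrays. It differed by more than the members' median difference of 0.20, so these counts lean to lower calls. The count of higher calls rested on single arrays: it was 1 without naive stimulated array 3, 2 without memory stimulated array 1 or 3, 3 without naive stimulated array 2, 4 without memory stimulated array 2, 6 without naive stimulated array 4, 7 without memory resting array 2, and 18 without naive resting array 1. Among the genes called were Ndufs7, at 3.62, 3.44, 3.78 and 3.12 in memory stimulated against 3.21, 2.87, 2.79 and 2.89 in naive stimulated cells, with some overlap, and Atp5g2 at the values given above, with none. Their differences were 0.55 ± 0.15 (SE, adjusted p = 0.0169) and 0.59 ± 0.19 (SE, adjusted p = 0.0306). Atp5d differed by 0.51 ± 0.17 (SE, adjusted p = 0.036), Uqcr (now Uqcr11) by 0.50 ± 0.17 (SE, adjusted p = 0.0478) and Ndufv1 by 0.48 ± 0.17 (SE, adjusted p = 0.0493); each of these 5 lost its call without 1 array or another. Cox6a2 was lower in memory stimulated cells, at -3.77, -2.88, -2.78 and -3.75 against -3.37, -1.33, -1.35 and -2.15 in naive stimulated cells. The groups overlapped, since naive stimulated array 1 lay within the range of the memory arrays, and the difference of -1.24 ± 0.37 (SE, adjusted p = 0.0237) was lost without any 1 of 4 arrays. In naive cells Cox6a2 rose by 1.80 ± 0.37 (SE, adjusted p = 4.81e-04) over naive resting levels of -3.70, -3.91, -4.02 and -3.77, and in memory cells it changed by 0.32 ± 0.37 (SE, adjusted p = 0.447).

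The memory response differed from the naive response in 3 of 77 members: 2 were called higher and 1 lower, beside 5.9% and 14.1% of all genes, 20% in either direction. The median difference between responses was 0.25 log2 over the members, against -0.00 over all genes and 0.16 over the 7647 brighter genes. With the planned normexp correction the sign of the members' median turned, as given below. The count of higher calls was 1 to 8 without 1 array, the 8 without memory resting array 4, and 6 with the replicate number as a block. With each array centred on the members' median level, 0 members were called higher and 7 lower, beside 1.62% and 23% of all genes. That level shifted by more than the members' median difference of 0.25, so these counts lean to lower calls. Beside Cox7c, the members called by the main scaling were Cox7a1, an isoform known from heart and skeletal muscle, and Ndufs7. Cox7a1 had -2.06, -1.98, -1.89 and -1.75 in memory stimulated cells against -1.89, -1.58, -1.78 and -1.41 in memory resting cells, and -2.87, -2.26, -2.51 and -2.01 in naive stimulated cells against -1.41, -1.21, -1.41 and -1.19 in naive resting cells. It fell in naive cells, with a change of -1.11 ± 0.16 (SE, adjusted p = 2.01e-05), and its memory change of -0.25 ± 0.16 (SE, adjusted p = 0.175) was not called; the responses differed by 0.85 ± 0.23 (SE, adjusted p = 0.0166), called under all 6 scalings but not with the planned normexp correction, at 0.95 (adjusted p = 0.432). Ndufs7 differed by 0.66 ± 0.22 (SE, adjusted p = 0.0435), a call lost without any 1 of 12 arrays and not held under all 6 scalings. Relative to the members' median level, neither Cox7a1 nor Ndufs7 was called in this comparison. Cox7c was among the 7 called lower, at -1.66 ± 0.19 (SE, adjusted p = 1.52e-05). These values include the shift of that level.

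**Figure D4:**
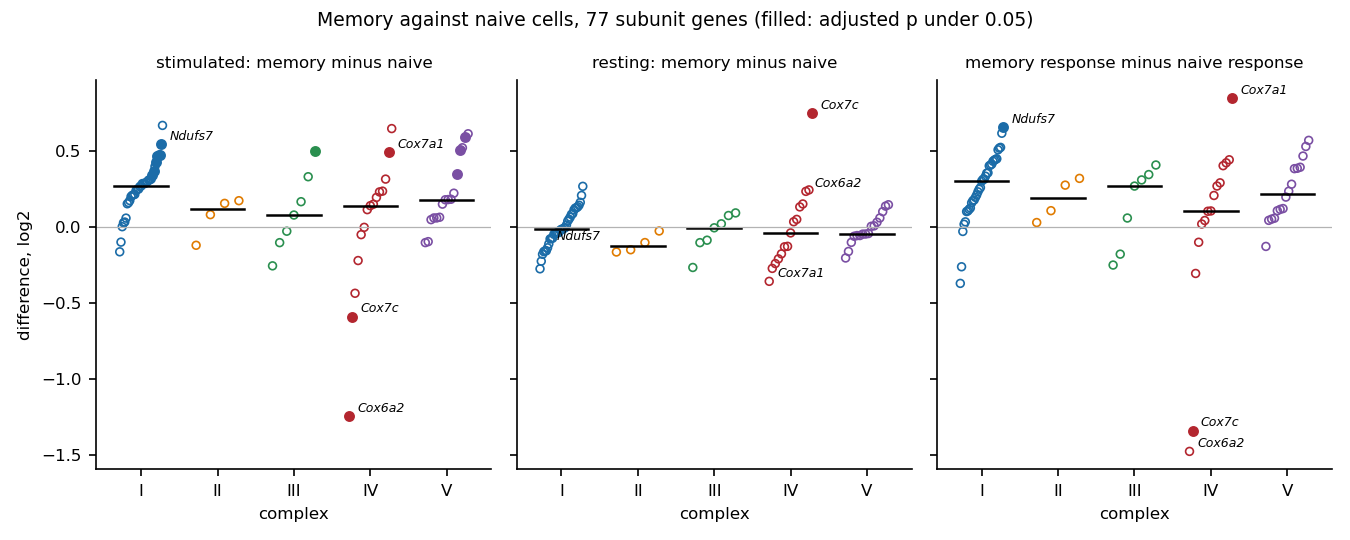
Difference between memory and naive cells for the 77 subunit genes by complex, in log2, for stimulated cells (left), resting cells (middle) and the responses, memory minus naive (right). Filled points passed the test and lines are medians. Cox7c stands apart at rest and between responses.

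Across members, the difference between responses moved with the base composition of the probe. Spearman's rho of the share of G and C with this difference was 0.647 over the 77 members, and Pearson's r 0.445, against r = 0.0296 over all 18404 genes. Members at or below the median share had a median difference of 0.12, and the others 0.40. For the naive response rho was -0.252 and for the memory response -0.0332. For memory minus naive cells it was -0.362 at rest and 0.433 after stimulation. These are descriptions across genes measured on the same arrays, and their part in the results was not tested.

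The 5 genes outside the set whose levels over the 16 arrays followed the members' standardized mean most closely were Mkks (r = 0.957), Josd2 (r = 0.938), Jkamp (r = 0.934), Bola2 (r = 0.931) and Ap4s1 (r = 0.926). Within the set, 52 of 77 members had r above 0.5 with that mean, 1 had r below -0.5, and 24 lay between.

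Other lists of the pathway gave the following counts. Over all genes, 38.3% were called higher and 31% lower in naive cells, and 31.4% and 39.1% in memory cells. Of 46 tested assembly factors, which build the complexes, 23 were called higher and 13 lower in naive cells, and 25 and 11 in memory cells, with medians of 0.37 and 0.38. Ndufaf4, a complex I assembly factor, rose by 3.59 and 3.79 (adjusted p = 2.35e-11 and 1.39e-11), more than any subunit. Of 17 tested electron carriers and coenzyme Q genes, 10 were called higher and 5 lower in naive cells, and 10 and 4 in memory cells. Cycs, the cytochrome c between complexes III and IV, rose by 2.36 and 2.33, and Ndufab1, the acyl carrier protein that is also a complex I subunit, by 1.38 and 1.61; its name does not match the rule. Of 17 citric acid cycle genes, 10 were called higher and 3 lower in naive cells, and 11 and 1 in memory cells, with Idh3a, of the NAD-dependent isocitrate dehydrogenase, at 2.26 and 2.07. Of 14 genes that copy and express mitochondrial DNA, 6 were called higher and 2 lower in naive cells, and 8 and 2 in memory cells. The packaging factor Tfam rose by 0.57 and 0.91.

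Of 10 regulators of mitochondrial biogenesis, 9 were called higher and 0 lower in naive cells (limma; the tenth, Nrf1, changed by -0.13 at adjusted p = 0.253), and 8 higher and 1 lower in memory cells. The shares of all genes were 38.3% and 31% in naive cells, and 31.4% and 39.1% in memory cells. Myc, a regulator of growth genes, rose by 4.72 and 6.02, the coactivator Pprc1 by 2.75 and 3.24, and Gabpb1, a partner of the ETS factor Gabpa, by 2.55 and 2.99. The coactivator Ppargc1a was dim, with a mean level of -4.0 in naive stimulated against -4.79 in naive resting cells, and -5.24 in memory stimulated against -4.02 in memory resting cells, where 2 of 4 memory stimulated arrays were well above background. It rose by 0.79 in naive cells and fell by 1.22 log2 in memory cells. The 13 mitochondrially encoded subunits were looked for by symbol, and 0 were found on the array.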

How the data were processed

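RNA of 16 samples, 4 in each of 4 groups, was hybridised in 1 colour to whole mouse genome arrays with probes of 60 bases. Per the labels' protocols, total RNA was copied from an oligo-dT primer with a T7 promoter and labelled with Cy3, so the signal lies near the 3' end of a transcript. Per the file headers, the authors extracted the deposited intensity of each spot with Agilent Feature Extraction 9.5.3.1, which subtracts background within an array and does not normalize between arrays. A deposited table holds the authors' own processed intensity values for 33797 probes, made in a way not stated in these sources. It was set against the log2 processed signal of the same arrays (r of 0.976 or more across probes) and served as an alternative only. Every column used had a sample.

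Processed signals were put on a log2 scale and centred on each array's 75th percentile over 41174 probes, which lay between 484.6 and 669.8 intensity units. Control spots and 59 to 116 outlier spots per array of 43379 were left out, and spots of one probe were averaged. Testing required a probe well above background on 3 of 4 arrays in at least 1 group, and a gene was represented by its tested probe with the highest mean level. Group means were fitted over all 16 arrays in limma 3.58.1 (R 4.3.3). Tests were two-sided, with Benjamini-Hochberg adjustment over 18404 genes and a threshold of 0.05, and every adjusted p comes from this model. Values relative to the members' median, without an array or under another setting come from the same model fitted again. The model was tested on simulated data. Versions of other tools were matplotlib 3.10.9, numpy 2.4.6, pandas 2.3.3 and Python 3.11.15. The number of arrays limits the precision.

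Members named were the complex II genes, the sets of isoforms, and in the other complexes the 3 largest called rises and falls of each response and the 2 largest called differences of the other comparisons. Ndufv2, Ndufs1, Ndufs3, Ndufs8, Uqcrh, Atp5c1 and the examples from other lists were named after their values were seen. A few genes that enter the counts are not reported here by name. Members, lists and settings were chosen with earlier results of these data known. Replicate numbers come from the labels. Alternatives were other scalings and background corrections, other filters and probe rules, the replicate block, other forms of the fit and leaving out each array. Probe positions are on mm7 (NCBI35), per the file headers, without annotation of exons or UTRs.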

Additional observations from a re-analysis of the deposited data

Results flagged for a closer look

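Within a group of 4 arrays, 14 levels of the 40 genes given by array lay far from the other 3 arrays, out of 160 groups looked at; chance alone flags about 1 in 20 groups. Memory resting array 4 was the highest of its group, by a wide gap, for Atp5a1 (6.72), Atp5g1 (3.233), Ndufb6 (3.304), Sdhb (3.219) and Uqcrq (4.461). In the same group, array 2 was lowest for Cox6b1 (-0.3597). Naive resting array 1 was highest for Atp5d (3.014) and Cox8a (5.823), naive resting array 4 was highest for Cox4i1 (6.414), and naive resting array 3 was lowest for Cox6a1 (7.06). Naive stimulated array 1 was highest for Ndufv1 (2.86) and Cox6b1 (0.1376) and lowest for Sdhd (3.939). Memory stimulated array 3 was highest for Uqcrc1 (5.198). All of these are log2 levels relative to the array's 75th percentile.

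Memory and naive cells differed in their response, by the fit's own test of that difference, for Cox7a1 (0.8526 log2, adjusted p = 0.0166), Cox7c (-1.342, adjusted p = 0.00114) and Ndufs7 (0.6572, adjusted p = 0.0435), each as memory response minus naive response.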

How the results depend on the processing

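The values of the report come from 75th percentile scaling; counts below are of 77 members, higher and lower. Quantile scaling gave 19 and 31 in the naive response (median -0.10), 18 and 26 in the memory response (median -0.069), 2 higher at rest, and 1 and 2 in the difference between responses. The authors' deposited table gave 17 and 32 (median -0.13), 19 and 30 (median -0.11), 8 and 2 at rest, 4 lower after stimulation, and 4 and 4 between responses (median 0.091). Scaling on probes above background on all arrays gave medians of 0.093 and 0.15 for the responses, 19 lower in the memory response, and 1 and 2 between responses. The planned normexp correction gave 14 and 10 in the naive response, 8 higher in the memory response (median -0.034), 0 higher at rest, 0 and 0 after stimulation (median -0.18) and 0 and 0 between responses (median -0.15); on 3 arrays 5 to 15 spots had a local background far above their signal, and these arrays' medians came out at 396 to 1155 against 91.9 to 111.3 on the others. With those spots repaired, a setting added after seeing the data, 2 were higher at rest and every other count and median lay near its main value.
Without the filter on dim probes 5 were higher after stimulation and 1 between responses. With every probe tested on its own 1 was higher between responses, with an intensity trend and robust spread 2 were lower there, and a fit on the groups compared gave 1 lower after stimulation.
Signs turned for Cox4i1 in the memory response (-0.14 with quantile scaling, -0.034 with normexp, -0.23 with the deposited table), Cox6a1 in the naive response (-0.13 with quantile scaling and -0.13 with the deposited table) and the memory response (-0.086, -0.085 with normexp, -0.11), Sdhd in the naive response (-0.075 and -0.11) and the memory response (-0.16, -0.16 with normexp, -0.21), and, with the deposited table, Cox7a2 (-0.0092) and Ndufa4 (-0.033) in the naive response. The cause was not tested.
Leaving out 1 array gave, for the naive response, 31 to 39 higher, 14 to 20 lower and a median of 0.24 to 0.33; for the memory response 40 to 45, 8 to 12 and 0.37 to 0.51; at rest 1 to 3, 0 to 2 and -0.11 to 0.01; after stimulation 1 to 18, 0 to 2 and 0.16 to 0.23; and between responses 1 to 8, 1 to 2 and 0.18 to 0.30. At rest the 3 higher came without naive resting array 1 and the 2 lower without memory resting array 4, whose absence also gave 8 higher between responses. Of 77 calls of named genes, 61 held without any 1 array and 16 were lost without some array.
Replicate numbers recur in all groups. Deviations from the group means correlated above 0.1 in 16 of 24 same-numbered pairs of arrays (lowest -0.211, median 0.161) and in 13 of 72 other pairs (median -0.0712), and 12 of 16 arrays correlated best with their own number, a hint from the data that numbers may share an effect. Since not every pair did so, the numbers were not taken as pairs, a choice that does not exclude a shared effect. Each number was also the array's position on its slide, so number and position cannot be told apart. The replicate block gave 1 lower at rest and 6 higher between responses. Slide as a block could not be run, since each slide held 1 group.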

Other observations

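Among genes around the subunits, several fell in both responses while their lists held mostly higher calls. The complex I assembly factor Nubpl changed by -1.81 log2 in naive cells and -1.63 in memory cells (adjusted p = 4.21e-07 and 1.42e-06), and Ndufaf3, another, by -1.26 and -0.77. Polg2, the accessory subunit of the mitochondrial DNA polymerase, changed by -2.36 and -1.81, and Mterf2, a mitochondrial termination factor family member, by -2.27 and -1.63. Idh2, the NADP-dependent mitochondrial isocitrate dehydrogenase, changed by -1.58 and -1.63 (adjusted p = 3.32e-05 and 2.41e-05), while Idh3a, of the NAD-dependent enzyme, rose. Cyc1, the cytochrome c1 of complex III, whose name lies outside the rule, rose by 1.29 in memory cells and 0.61 in naive cells, with a memory minus naive difference of 0.69 (adjusted p = 0.0162). These genes were named after their values were seen.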
